A study of Danio rerio with 2 samples.

Results

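The Hox genes of the zebrafish head were described as a group, as a gauge of how far back along the body axis the collected tissue reached. Members were all rows of the deposited table whose gene symbol is hox, a letter from a to d and a number, with case ignored. This gave 47 genes of 51544 features. Messenger RNA had been sequenced from heads of AB strain embryos at 33 hours post fertilisation, severed just ahead of the otic vesicle, which becomes the inner ear. The rbm24a mutant library came from embryos with an 8 bp TALEN-made deletion in exon 1, and the wildtype library from embryos with no listed genotype change. Rbm24a binds RNA, and the study is about crystallin accumulation and lens clarity. Independent samples are mentioned in the labels' protocol, but the data analysed here were 1 library per group. No difference was therefore checked in replicates, and no p-value is given. How many embryos or clutches each library holds is not given in the sources used here.

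Hox genes encode homeodomain transcription factors and sit in clusters. Their order along a cluster, numbered by paralog group, follows the order of their front expression limits along the body. Along this axis low numbers reach into the hindbrain, and high numbers are limited to the trunk and tail. In the hindbrain the paralog group 2 genes reach furthest forward, hoxb1a marks the fourth rhombomere, and paralog group 3 genes start behind it. The otic vesicle lies beside the middle of this series. The forebrain and midbrain in front of it lack Hox expression for the most part.

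The table assigned 16667612 reads to features in the mutant and 14148577 in the wildtype library. Levels are given in CPM, counts scaled to that total, and 1 read is worth 0.0600 CPM in the mutant and 0.0707 CPM in the wildtype library. rbm24a (ENSDARG00000102995) had 121 reads (7.26 CPM) in the mutant and 224 reads (15.8 CPM) in the wildtype library. This was a 2.18-fold lower level in the mutant (95% interval 1.74 to 2.74). A second row of the symbol RBM24 (ENSDARG00000031809) had 13 reads in the mutant and 31 in the wildtype library. It was 2.81-fold lower in the mutant (interval 1.43 to 5.85), so the lower level was not particular to the row taken as rbm24a. That row was taken as rbm24a because its span, 35150 bp, is the nearer to the 35948 bp of rbm24a in RefSeq. All intervals are exact 95% intervals for counting error only: Poisson for levels and Clopper-Pearson for ratios. A count of 0 is given the limit of 3 reads in place of the Poisson limit. Of 29 rows in a list of forebrain and midbrain regulators, all 29 averaged at least 1 CPM, so these markers of the labelled tissue were present. Their summed level was 1482 CPM in the mutant and 1318 CPM in the wildtype library.

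Hox transcripts were scarce and nearly all of low paralog number. The 47 genes together had 426 reads in the mutant and 409 in the wildtype library, or 25.6 CPM (interval 23.2 to 28.1) and 28.9 CPM (interval 26.2 to 31.8). At least 1 read was found for 15 Hox genes in the mutant and 16 in the wildtype library, 20 in either, and 27 had no read in either. Thus 31.9% of Hox genes had a read in the mutant and 34.0% in the wildtype library, against 69.8% and 70.2% of all annotated genes. In bulk tissue fewer cells of a type and less RNA per cell cannot be told apart. Paralog groups 1 to 3, with 10 genes, held 97.2% of Hox reads in the mutant and 95.4% in the wildtype library. The other 37 genes summed to 12 reads in the mutant and 19 in the wildtype library. Taking 1 CPM as the level for a gene, the highest paralog number reached was 3 in the mutant and 3 in the wildtype library. With 0.5 CPM or 10 reads as the level it was 3 in the mutant and 10 in the wildtype library, through hoxa10b, and with 1 read it was 13 in both.

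**Figure D1:**
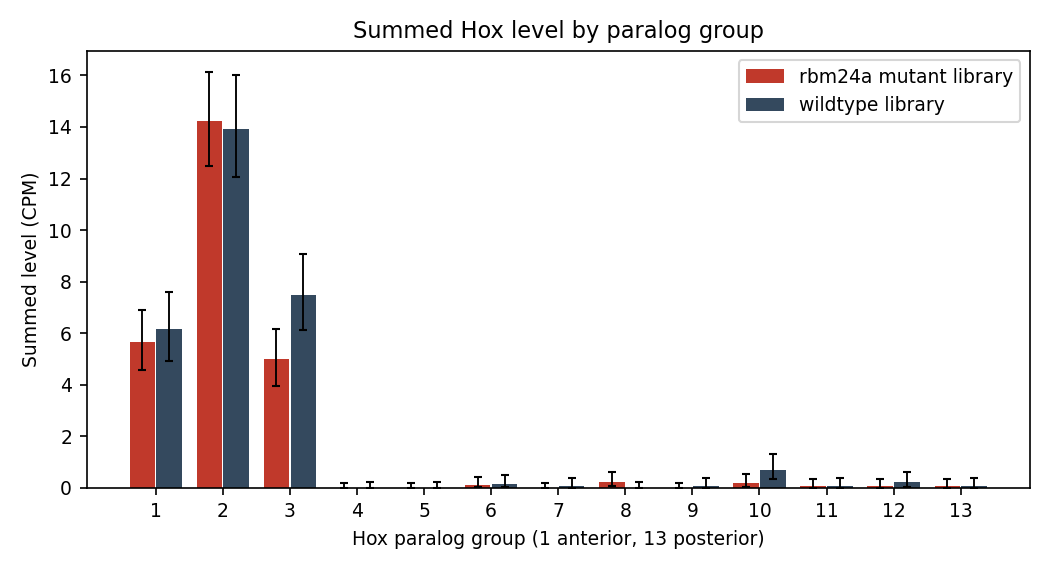
Summed level of all Hox genes of each paralog group (CPM, vertical axis) against paralog number, for the rbm24a mutant (left bar) and wildtype library (right bar), with 95% Poisson intervals. Group 2 is highest at 14.2 and 13.9 CPM, and no group from 4 to 13 reaches 1 CPM in either library.

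Paralog group 2 was the most abundant Hox group. hoxa2b and hoxb2a together give the second pharyngeal arch its identity in zebrafish, and both are also expressed in the hindbrain. hoxa2b (ENSDARG00000023031) had 129 reads in the mutant and 104 in the wildtype library, or 7.74 and 7.35 CPM, a ratio of 1.05 (interval 0.807 to 1.38). hoxb2a (ENSDARG00000000175) had 108 reads in the mutant and 93 in the wildtype library, or 6.48 and 6.57 CPM, a ratio of 0.986 (interval 0.740 to 1.32). The pair summed to 237 reads in the mutant and 197 in the wildtype library, which was 55.6% and 48.2% of all Hox reads. The summed ratio was 1.02 with an interval of 0.842 to 1.24, so a difference beyond these bounds was not seen and a smaller one was not detectable at this depth.

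Paralog group 1 summed to 5.64 CPM in the mutant and 6.15 CPM in the wildtype library (ratio 0.917, interval 0.678 to 1.24). hoxb1a (ENSDARG00000008174), the marker of the fourth rhombomere, had 17 reads in the mutant and 31 in the wildtype library, or 1.02 and 2.19 CPM. It was 2.15-fold lower in the mutant library, with an interval of 1.15 to 4.14 that does not hold 1. hoxa1a (ENSDARG00000104307), whose mouse counterpart acts early in hindbrain patterning, had 44 reads in the mutant and 39 in the wildtype library, a ratio of 0.958 (interval 0.608 to 1.51). hoxc1a had 29 reads in the mutant and 17 in the wildtype library, above 1 CPM in both (ratio 1.45, interval 0.770 to 2.81). hoxb1b, which acts in early hindbrain patterning in zebrafish, had 4 reads in the mutant and 0 in the wildtype library. A count of 0 allows up to 0.180 CPM in the mutant and 0.212 CPM in the wildtype library (3 reads), and the interval of the ratio reaches down to 0.560, so hoxb1b is not told apart between them.

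Among groups 1 to 3, group 3 had the most uneven sum, 4.98 CPM in the mutant and 7.49 CPM in the wildtype library (ratio of mutant over wildtype 0.665, interval 0.493 to 0.894). hoxb3a (ENSDARG00000029263) carried this. It had 51 reads in the mutant and 85 in the wildtype library, or 3.06 and 6.01 CPM, and was thus 1.96-fold lower in the mutant (interval 1.37 to 2.84). hoxa3a (ENSDARG00000103862) lay the other way, with 31 reads in the mutant and 16 in the wildtype library and a ratio of 1.64 whose interval of 0.873 to 3.22 holds 1. hoxd3a had 1 read in the mutant and 5 in the wildtype library, and hoxc3a had 0 in both. These are genes of the posterior hindbrain and the tissue behind it, and their ratios ran in both directions. Without hoxb3a, paralog groups 1 to 3 summed to 21.8 CPM in the mutant and 21.6 CPM in the wildtype library, a ratio of 1.01 (interval 0.865 to 1.18).

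**Figure D2:**
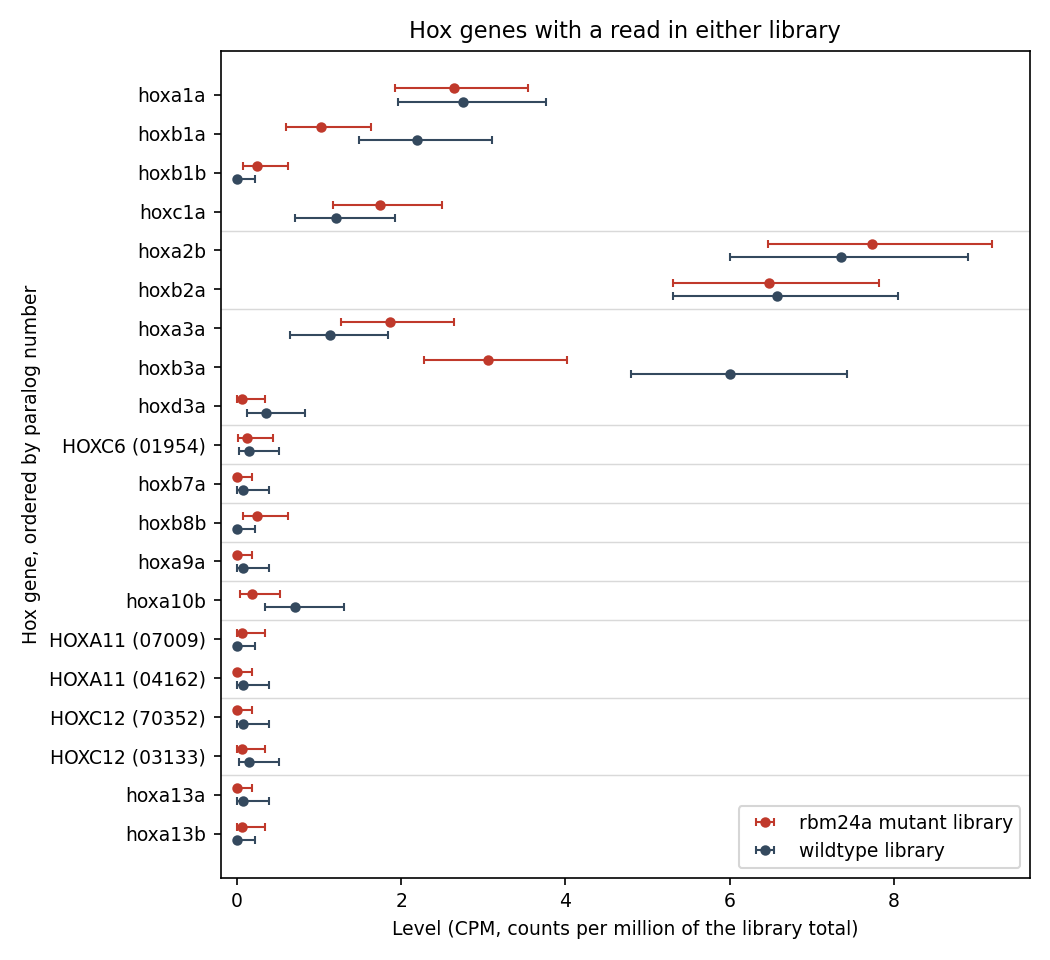
Level (CPM, horizontal axis) of the 20 Hox genes with a read in either library, ordered by paralog number from top to bottom, with the rbm24a mutant point above the wildtype point and 95% Poisson intervals. hoxa2b and hoxb2a are highest in both libraries, the intervals of hoxb3a do not overlap, and every gene from paralog group 6 on lies below 1 CPM. The 5 digits in brackets end the gene ID where the copy could not be named.

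From paralog group 4 on, reads were few and scattered. Group 4 (3 genes) and group 5 (4 genes) had 0 reads in both libraries. Groups 5 to 8 together had 6 reads in the mutant and 3 in the wildtype library, with the most in hoxb8b (4 in the mutant, 0 in the wildtype library) and in a HOXC6 row (ENSDARG00000101954) with 2 and 2. Groups 9 to 13, along the body axis the genes of the hind trunk and tail, had 6 reads in the mutant and 16 in the wildtype library. hoxa10b (ENSDARG00000031337) held 3 of these in the mutant and 10 in the wildtype library, or 0.180 and 0.707 CPM. Its ratio was 3.93-fold lower in the mutant library, with an interval of 1.01 to 22.2. Without hoxa10b, paralog groups 4 to 13 had 9 reads in the mutant and 9 in the wildtype library, against 12 and 19 with it. Every other gene of these groups had at most 4 reads in a library, and hoxd9a to hoxd13a had 0 in both.

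The empty stretch after group 3 has a limit of annotation. By their RefSeq spans, 11 of the 37 genes of groups 4 to 13 lie within or across the span of another Hox gene, among them all 7 of groups 4 and 5 (for example hoxb4a and hoxb5a within hoxb3a, and hoxc4a within hoxc3a). All 11 had 0 reads in both libraries. Of 20 genes whose span holds no other Hox gene, 14 also had 0 reads in both, and the 20 summed to 8 reads in the mutant and 13 in the wildtype library. The other 6 rows could not be matched to 1 copy and summed to 4 reads in the mutant and 6 in the wildtype library. How reads shared by overlapping genes were counted is not given in the sources used here, and its part in the zeros was not tested. The levels of hoxb1b, hoxa3a, hoxb3a, hoxc3a (0 reads in both libraries) and hoxd3a are uncertain for the same reason.

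**Figure D3:**
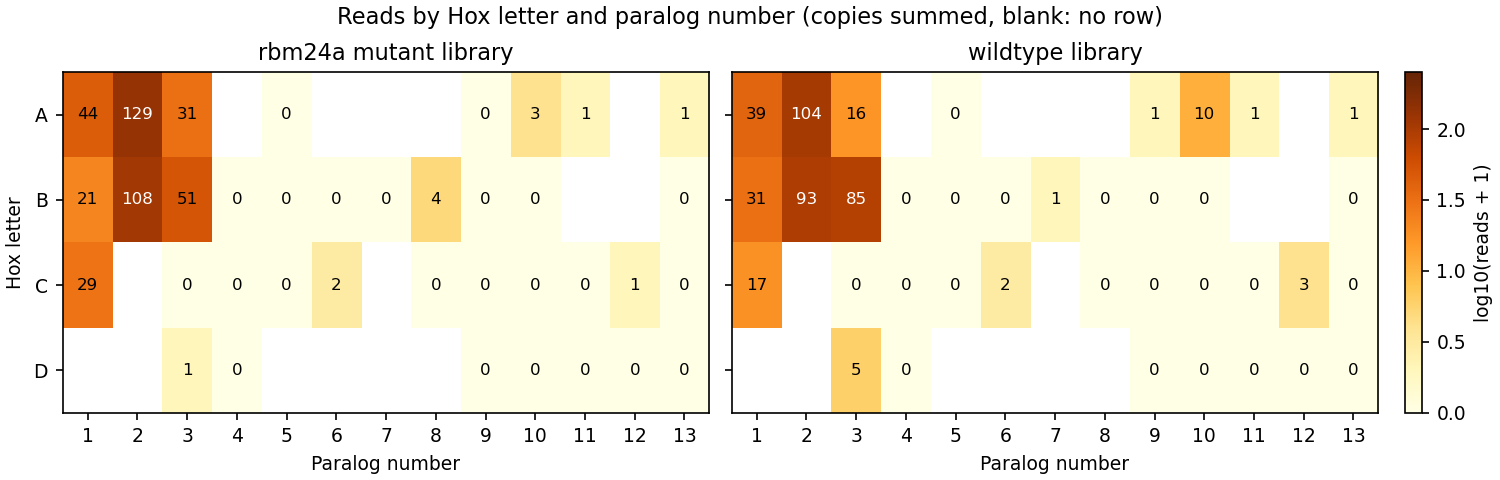
Number of reads by Hox letter (vertical) and paralog number (horizontal), copies of 1 letter and number summed, in the rbm24a mutant (left panel) and wildtype library (right panel), with colour as log10(reads + 1) and blank squares where the table has no row. The squares with over 10 reads in a library stand at numbers 1 to 3 of letters A and B and number 1 of letter C, and the highest further back is A10 with 3 reads in the mutant and 10 in the wildtype library.

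Single clusters differed in how much they could show. The hoxba cluster, with 11 members from hoxb1a to hoxb13a, had 176 reads in the mutant and 210 in the wildtype library. Its 8 members from hoxb4a on had 0 of these in the mutant and 1 in the wildtype library, in hoxb7a. Among these members hoxb4a, hoxb5a and hoxb6a overlap the span of hoxb3a. The hoxda cluster, which starts at hoxd3a, had 1 read in the mutant and 5 in the wildtype library, all in hoxd3a, which is too few to show a step. The hoxbb cluster had 8 reads in the mutant and 0 in the wildtype library, split evenly between hoxb1b and hoxb8b, which is also too few to show a step. Its members hoxb5b and hoxb6b had 0 reads in both libraries and overlap the span of hoxb1b. The interval of the summed hoxbb ratio of mutant over wildtype starts at 1.45 and has no upper limit, and it rests on those 8 reads. By letter, A genes summed to 12.5 CPM in the mutant and 12.2 CPM in the wildtype library, B genes to 11.0 and 14.8, C genes to 1.92 and 1.55, and D genes to 0.0600 and 0.353. The B sum, which holds hoxb3a, had a ratio of 0.744 (interval 0.607 to 0.911).

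Levels of different genes were compared per length with the authors' RPKM values. hoxb2a stood at 3.54 RPKM in the mutant and 3.59 RPKM in the wildtype library, and hoxa2b at 3.47 and 3.30, so this pair did not differ beyond counting error. Next came hoxa1a at 1.13 RPKM in the mutant and 1.19 in the wildtype library, hoxb1a at 0.68 and 1.45, and hoxb3a at 0.48 and 0.93. In the wildtype library hoxb1a lay above hoxa1a and in the mutant library below it, with overlapping intervals in both (hoxb1a 0.396 to 1.09 RPKM in the mutant and 0.985 to 2.06 in the wildtype library; hoxa1a 0.821 to 1.52 and 0.846 to 1.63). hoxc1a stood at 0.21 RPKM in the mutant and 0.14 in the wildtype library, and hoxa3a at 0.21 and 0.12. The step from group 2 to the next genes, and that from hoxb3a to hoxa3a, exceeded the counting intervals in both libraries. These intervals do not cover the gene length used or the overlap of hoxb3a and hoxa3a with other Hox genes. The length implied by reads and RPKM was 6.46 kb for hoxb3a, 8.86 kb for hoxa3a and 8.29 kb for hoxc1a, against 2.23 kb for hoxa2b.

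Of the 47 genes, 7 averaged at least 1 CPM, all of paralog groups 1 to 3. By log2((mutant CPM + 1)/(wildtype CPM + 1)), 0 of the 7 were 2-fold higher in the mutant library and 0 were 2-fold lower, where 2.22% of 18094 features were higher and 2.82% lower (5.05% in all). Their median log2 ratio was -0.02, with 3 above 0 and 4 below, against -0.0013 over all features measured. A pseudocount of 1 CPM understates differences at these levels. By the ratio of CPM alone, 2 of 8 Hox genes with 10 reads in either library (hoxb1a and hoxa10b) were 2-fold lower in the mutant library with an interval free of 1, against 12.0% of such features in either direction. With hoxb3a, 3 of 8 had an interval free of 1, against 42.8% of features, many of them far deeper. hoxa10b entered these 8 only through its 10 reads in the wildtype library, so the filter itself favoured a lower ratio for it. The sum of all Hox genes had a ratio of 0.884 with an interval of 0.770 to 1.02, and of 0.982 without hoxb3a. Of the 37 genes in the authors' deposited table of differing genes, 0 are Hox genes. The highest Hox level was 3.59 RPKM, and the lowest wildtype level in the authors' deposited table is 21.6 FPKM.

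**Figure D4:**
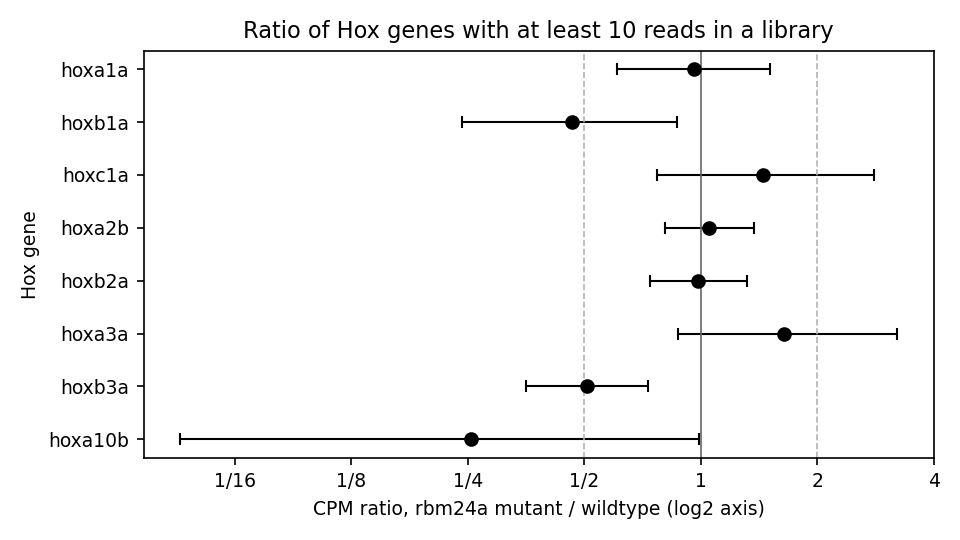
Ratio of CPM, rbm24a mutant over wildtype library, on a log2 axis for the 8 Hox genes with at least 10 reads in a library, with exact 95% counting intervals, a solid line at 1 and dashed lines at 2-fold. The intervals of hoxb1a, hoxb3a and hoxa10b lie below 1, and that of hoxa10b, from 3 and 10 reads, ends at 0.989.

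Of the measured genes that work with or on Hox genes, none passed 2-fold with the pseudocount of 1 CPM, and rxrgb and cbx7a did without it. Over all features 5.05% of 18094 passed with that pseudocount, a share that would give few rows in lists of this size. Hox proteins bind DNA with TALE homeodomain partners of the Pbx, Meis and Pknox families. Of 12 such rows, 11 were measured and none passed 2-fold (median log2 ratio 0.06), with pbx4, the main Pbx of the early zebrafish hindbrain, at 403 CPM in the mutant and 346 CPM in the wildtype library. The furthest apart was pbx2, at 39.2 CPM in the mutant and 67.7 CPM in the wildtype library (log2 ratio -0.77), followed by pbx1b (-0.53), meis1a (0.53) and PBX3 (-0.47). Retinoic acid turns on Hox genes from the rear of the hindbrain. Of 22 measured genes of its synthesis, breakdown and reception, 0 passed 2-fold (median -0.04). The list summed to 604 CPM in the mutant and 708 CPM in the wildtype library (ratio 0.854, interval 0.830 to 0.878). Its measured members were split evenly, with 11 above 0 and 11 below. The receptor gene rxrgb was furthest apart, with 66 reads in the mutant and 26 in the wildtype library (log2 ratio 0.81). Its ratio without pseudocount was 2.15 (interval 1.35 to 3.54). RXRB, another receptor, had 2335 reads in the mutant and 2999 in the wildtype library (log2 ratio -0.59). At 140 CPM in the mutant and 212 CPM in the wildtype library, RXRB made most of the difference between the list sums. CYP26A1, which breaks retinoic acid down, had 181 reads in the mutant and 236 in the wildtype library (log2 ratio -0.58). A row of the receptor RARG (ENSDARG00000054003) had 61 and 32 (0.51). The other RARG row (ENSDARG00000034117) was deeper, with 1601 reads in the mutant and 1250 in the wildtype library (0.12). ALDH1A2, an enzyme of retinoic acid synthesis, stood at 26.1 CPM in the mutant and 19.5 CPM in the wildtype library, and was named after its value was seen. Trithorax, MOZ and Polycomb regulators, which keep Hox genes on or off through chromatin, had 32 of 32 members measured, 0 past 2-fold and a median of -0.02. There cbx7a was furthest apart, with 43 reads in the mutant and 77 in the wildtype library (log2 ratio -0.85, and without pseudocount 2.11-fold lower, interval 1.43 to 3.14). Next were phc1 (0.34), CBX8 (ENSDARG00000087327; 0.32) and phc2a (-0.31). The other CBX8 row (ENSDARG00000098771) had 76 reads in the mutant and 77 in the wildtype library (-0.21).

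Other regulators of hindbrain segments were present in both libraries. Of 34 rows, 30 were measured, with 1 higher and 0 lower by 2-fold, against 2.22% and 2.82% of all 18094 features measured. The median log2 ratio was 0.05. The 1 higher gene was vgll4l, with 308 reads in the mutant and 112 in the wildtype library (ratio 2.33, interval 1.87 to 2.92). Some signal genes of the list came next. FGF20 (ENSDARG00000086070) had 78 reads in the mutant and 32 in the wildtype library (log2 ratio 0.80), and without pseudocount a ratio of 2.07 (interval 1.35 to 3.23). FGF8 (ENSDARG00000039615) had 86 reads in the mutant and 38 in the wildtype library (log2 ratio 0.74). Other rows of both symbols differed less. The other FGF8 row (ENSDARG00000003399) had 230 reads in the mutant and 180 in the wildtype library (log2 ratio 0.11). The other FGF20 row (ENSDARG00000007356) had 24 reads in the mutant and 18 in the wildtype library (0.10). FGF3, made in the fourth rhombomere in zebrafish but also in pharyngeal pouches and forebrain, had 300 reads in the mutant and 167 in the wildtype library (log2 ratio 0.57), the opposite side of hoxb1a. EGR2 (ENSDARG00000042826), of the rhombomeres on either side of the fourth, had 7 reads in the mutant and 8 in the wildtype library, and was named after its values were seen.

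**Figure D5:**
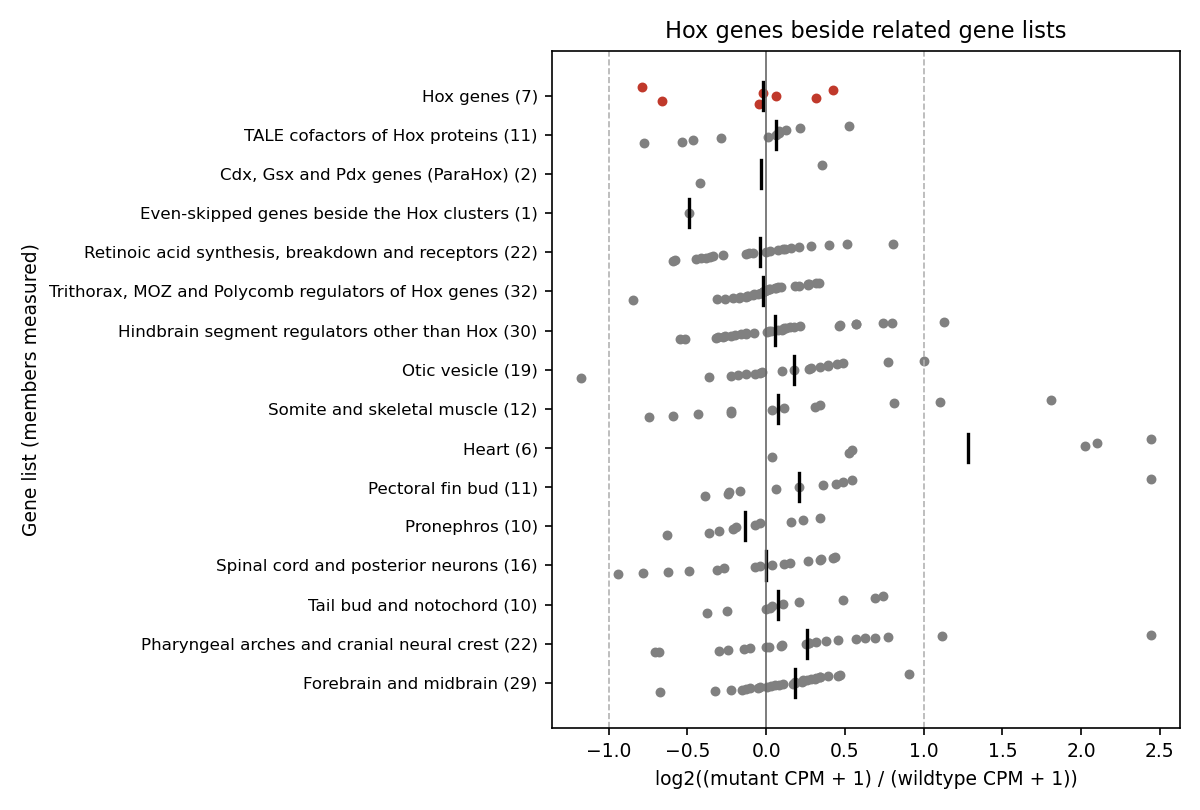
log2((mutant CPM + 1)/(wildtype CPM + 1)) of each measured Hox gene (red) and of each measured member of 15 other lists (grey), with the list median as a black bar, the number measured in brackets, and dashed lines at 2-fold. The 7 Hox genes lie between -0.79 and 0.42, and the heart list has the highest median at 1.28. That median is over 6 measured rows, some of which passed the filter only through the mutant library.

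Homeobox genes related to the Hox family were set beside it. EVX2, an even-skipped gene at the hind end of the Hox D cluster that is also made by neurons of the hindbrain, had 116 reads in the mutant and 144 in the wildtype library (log2 ratio -0.49), while hoxd13a beside it had 0 in both. evx1 and eve1 had 0 reads in both libraries. So did cdx4, a caudal gene that drives Hox genes of the trunk, whereas GSX1 and GSX2 of the brain had 413 and 134 reads in the mutant and 473 and 86 in the wildtype library. These 2 were the measured members of the Cdx, Gsx and Pdx list, which had a median of -0.03. None was past 2-fold, against 5.05% of all features measured.

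Markers of tissues around and behind the cut were set beside the Hox counts. Over all features 5.05% of 18094 passed the same 2-fold rule. The otic list had 19 of 23 rows measured, with oc90, an otolith matrix gene, higher (215 reads in the mutant and 84 in the wildtype library) and stm, another, lower (131 and 269). Its next members were DLX3 (ENSDARG00000014626; log2 ratio 0.77) and OTOG (0.49), and the deepest, with the most reads, was OTX1 (0.39). OTX1 also counts in the forebrain and midbrain list, and DLX3 in the list of pharyngeal arches and cranial neural crest. Spinal cord and posterior neuron genes had 16 of 23 measured and 0 past 2-fold (median -0.00092), and several are shared with the brain. OLIG2 was the furthest apart there (log2 ratio -0.94), followed by TAL1 (-0.78), lbx1a (-0.63) and EVX2 (-0.49). Its motor neuron genes MNX1, mnx2a and mnx2b had 0 reads in the mutant and 1, 1 and 2 in the wildtype library. Tail bud and notochord genes had 10 of 17 measured and 0 past 2-fold (median 0.07). Some of the measured rows also count in other lists, FGF8 in the hindbrain list and SHH in the pectoral fin list. FGF8 (ENSDARG00000039615; 0.74), GREB1 (0.69), SHH (ENSDARG00000038867; 0.49) and gdf11 (-0.38) were furthest apart there, and COL2A1 (0.04) was deepest. The other FGF8 row (ENSDARG00000003399) stood at 0.11. tbxta had 0 reads in the mutant and 1 in the wildtype library, TBXT had 0 and 2, and cdx4 and both WNT8A rows had 0 in both. Pronephros genes had 10 of 21 measured and 0 past 2-fold (median -0.13), with lhx1a (-0.63), PAX8 (-0.36), PAX2 (ENSDARG00000032578; 0.34) and TRPM7 (-0.30) furthest apart and SLC20A1 (ENSDARG00000010641; -0.07) deepest. PAX8 and PAX2 also count in the otic list. CDH17 of the kidney tubule had 0 reads in the mutant and 5 in the wildtype library. The motor neuron genes, tbxta, TBXT, WNT8A and CDH17 were named after their values were seen.

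Several heart markers were higher in the mutant library. Over all 18094 features measured, 2.22% were 2-fold higher in the mutant library and 2.82% were lower. Of 17 rows 6 were measured and 3 were higher in the mutant library, HAND2 (119 reads in the mutant, 7 in the wildtype library), MYH7 (80 and 5) and MYL7 (51 and 0), with 0 lower and a median of 1.28. These 3 were under 1 CPM in the wildtype library and passed the filter only through the mutant library. The count and the median of the measured rows therefore favour genes higher in the mutant library. TBX5 (ENSDARG00000024894), at 30 and 13 reads, was not past 2-fold, and ISL1 was the deepest (log2 ratio 0.04). Heart rows under 1 CPM lay on both sides and were named after their values were seen. TNNT2 (ENSDARG00000020610) had 31 reads in the mutant and 0 in the wildtype library, and cmlc1 had 25 and 0. By contrast, myl4 had 1 read in the mutant and 6 in the wildtype library, and myh6 had 0 and 4, with ratio intervals that hold 1. HAND2 and TBX5 also count in the pectoral fin list (11 of 16 measured, 1 higher, median 0.21), with SHH (0.49) and FGF10 (ENSDARG00000030932; 0.44) next. HAND2 counts too in the list of pharyngeal arches and cranial neural crest (22 of 23 measured, 2 higher, 0 lower, median 0.26), where BARX1 was the other (311 reads in the mutant, 114 in the wildtype library). DLX3 (0.77) and SOX9 (ENSDARG00000043923; -0.71) were next there, and TFAP2A (0.09) was the deepest. The somite and skeletal muscle list had 12 of 25 measured, with pvalb2 (50 reads in the mutant, 2 in the wildtype library) and an ACTA1 row (ENSDARG00000036371; 75 and 22) higher, 0 lower and a median of 0.08. There pvalb2 too passed the filter only through the mutant library. Members of the list lay on both sides. A second ACTA1 row (ENSDARG00000055618) had 27 reads in the mutant and 7 in the wildtype library (log2 ratio 0.81). Its ratio without pseudocount was 3.27 (interval 1.39 to 8.91), and it too passed the filter only through the mutant library. PAX3 (ENSDARG00000028348) had 149 reads in the mutant and 221 in the wildtype library (-0.74). MYOD1, named after its value was seen, had 42 reads in the mutant and 61 in the wildtype library (-0.59), and PAX7 (ENSDARG00000100398) was the deepest (0.34). The forebrain and midbrain list had 0 past 2-fold and a median of 0.18, with DMBX1 (ENSDARG00000002510; 0.91), rx3 (-0.67), EN2 (ENSDARG00000038868; 0.47) and LHX2 (0.46) furthest apart. The other DMBX1 row (ENSDARG00000009922) stood at 0.23. The heart list summed to 55.9 CPM in the mutant and 34.8 CPM in the wildtype library. ISL1, which also counts in the spinal cord and posterior neuron list, alone made 30.7 and 29.9 CPM of these sums. Paralog groups 4 to 13 summed to 0.720 CPM in the mutant and 1.34 CPM in the wildtype library. The part of any of these tissues in the Hox values was not tested.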

How the data were processed

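TruSeq RNA libraries gave 100 bp paired reads, per the labels' protocols. The submitters' processing notes name HISAT2 2.0.1, HTSeq 0.6.1, DESeq2, cutadapt, bcl2fastq 2.17.1.14 and build GRCz11. No source used here gives their roles, the annotation or the strandedness. How shared reads of overlapping genes were assigned is therefore not known. The deposited table of the authors gives whole-number read counts, not normalised, and RPKM values, whose gene length is not the length column (within 5% for 9.11% of 14426 features with at least 1 RPKM in the mutant library). A second table deposited by the authors, of 37 differing genes, repeats the counts and has FPKM values. No column of other samples was present (0).

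Counts were scaled to CPM by the column sum of all features (Python 3.11.15, pandas 2.3.3, SciPy 1.17.1). A feature was measured at a mean of at least 1 CPM and called where its log2 ratio reached 1 or -1 with a pseudocount of 1 CPM. Folds of single genes have no pseudocount. A count of 0 was read as up to 3 reads, in plots too. PCR reads are not independent molecules, so intervals may be too narrow. The steps were tested on simulated Poisson counts, with folds and intervals checked only in features above the level of most Hox genes. That test held no variation between libraries.

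Symbols came from a table of gene names, which spells 32 of the 47 members as mammalian genes. The copy (a or b) was taken from that table for 15, from the RefSeq table of assembly GRCz12tu for 26 (20 with 1 gene of that letter and number, 3 with a span within 1%, 3 by the copy left over), and 6 stayed without one. RefSeq holds 49 protein-coding Hox genes; hoxa4a and a hoxc13 copy are not analysed here. Of 268 symbols in 15 other lists, 88 matched exactly, 78 ignoring case, 84 after dropping the last letter (a or b), and 18 had no match.

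Described in full were Hox genes with 10 reads in either library or past 2-fold without pseudocount with an interval free of 1; from other lists, members past 2-fold, up to 4 measured members with the largest log2 ratio and, for neighbouring or posterior tissues, the one with most reads; others are marked. Some genes are not reported here. Members and lists were chosen with earlier results of these data known. Alternatives were other pseudocounts, filters, scalings and RPKM.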

Additional observations from a re-analysis of the deposited data

How the results depend on the processing

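No paired analysis was possible because there is 1 library per genotype, and none could be left out. Of the 8 Hox genes with 10 reads in a library, 0 changed direction under other scalings or RPKM. The number of Hox genes past 2-fold was 0 under every alternative run except a pseudocount of 0.1, where it was 1 (hoxb1a, lower). Over all features the number past 2-fold, 913, became 1502 with a pseudocount of 0.1, 261 with 5, 414 at a mean of at least 5 CPM and 484 with deposited RPKM. The highest paralog number was 13 in the mutant and 13 in the wildtype library when 1 read sufficed. It was 3 in the mutant and 10 in the wildtype library, through hoxa10b, at 0.5 CPM and at 10 reads. The median log2 ratio of Hox genes lay between -0.03 and 0.02 under the alternatives, and all summed ratios stayed within their counting intervals. Sums without hoxb3a or hoxa10b were added after seeing the data; without hoxa10b the ratio of paralog groups 5 to 13 was 0.849, against 0.536 with it. Depth limits single genes: 40 of 47 Hox genes averaged under 1 CPM.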

Other observations

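Apart from hoxa10b, a few transcripts of the trunk also had more reads in the wildtype library. Their counts were too low for the 2-fold rule, and they are named here after their values were seen. msgn1, a gene of the presomitic mesoderm, had 2 reads in the mutant and 11 in the wildtype library. Of the pronephros list, an SLC20A1 row (ENSDARG00000020114) had 4 reads in the mutant and 18 in the wildtype library. It was 5.30-fold lower in the mutant (interval 1.75 to 21.5), unlike the deeper SLC20A1 row (ENSDARG00000010641; log2 ratio -0.07). In the same list, wt1b had 1 read in the mutant and 5 in the wildtype library, and WT1 had 0 and 3, with ratio intervals that hold 1. Others of the same lists did not share this: tbx16 had 8 reads in the mutant and 8 in the wildtype library, and tbx6 had 13 and 8. The whole pronephros list summed to 401 CPM in the mutant and 452 CPM in the wildtype library. The deeper SLC20A1 row alone made 227 and 238 CPM of these sums. GATA5 and GATA6, factors of heart and gut precursors, lay the other way, with 10 and 8 reads in the mutant and 0 and 1 in the wildtype library.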
